A study of Mus musculus with 2 samples.

Results

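Gja1, Gja4, Gja5 and Gjc1, the 4 connexin genes of heart muscle and vessel lining, were described in whole hearts of E11.5 mouse embryos, read as 2 libraries of single cells. They were chosen by name, with earlier results of these data known, and all 4 were found by Ensembl identifier among the 22401 features of each deposited matrix. The control embryos carried Hand2fx/+ with no Cre. The H2CKO embryos carried Nfatc1Cre/wt and Hand2fx/fx, and both genotypes held R26RmTmG/wt, a reporter that turns from Tomato to GFP where Cre has acted. Nfatc1-Cre acts in the endocardium, so Hand2, which encodes a transcription factor, is deleted there and in cells that descend from it, not in all of the heart. There was 1 library per genotype, with the number and sex of the embryos not given in the labels, so no difference below has a replicate check and no p-value is given. Intervals are 95% and cover counting error only.

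Connexins are membrane proteins that assemble into rings, and a ring in one cell docks with a ring in the next to form a gap junction channel through which ions and small molecules pass. The connexins in a muscle cell help to set how fast the impulse spreads. Gja1 encodes the main connexin of working ventricular muscle, and Gja5 encodes a connexin of atria, ventricular trabeculae, the later fast conduction system and arteries. Gjc1 encodes a connexin of the early heart tube that is known for slowly conducting regions, and Gja4 encodes a connexin of endothelium.

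The genes lie apart in the genome (GRCm38 coordinates, GENCODE vM21 annotation). Gja1 (ENSMUSG00000050953) is at chr10:56377330-56402513 on the plus strand, and Gja4 (ENSMUSG00000050234) at chr4:127311421-127314039 on the minus strand. Gja5 (ENSMUSG00000057123) spans chr3:96904693-97077416 on the plus strand. Gjc1 (ENSMUSG00000034520) is at chr11:102799579-102819700 on the minus strand. No other gene was annotated on the same strand within any of the 4 spans. The RefSeq promoter table for GRCm38.p6 held 3 of the 4. The 250 bases before each RefSeq start are shown because 2 of these genes, Gja1 and Gja5, were highest in the same trabecular-like muscle cluster (of those with at least 50 cells in each library) while Gja4 was near 0 there. Each line runs 5′ to 3′ on the gene's strand, at chr10:56377050-56377299 (plus), chr4:127314040-127314289 (minus) and chr3:97032152-97032401 (plus). Capitals mark matches, on either strand, to GATAA (GATA factors), TGANTCA (AP-1), AAGTG (NKX2-5 half-site) or CACCC (KLF factors).
Gja1: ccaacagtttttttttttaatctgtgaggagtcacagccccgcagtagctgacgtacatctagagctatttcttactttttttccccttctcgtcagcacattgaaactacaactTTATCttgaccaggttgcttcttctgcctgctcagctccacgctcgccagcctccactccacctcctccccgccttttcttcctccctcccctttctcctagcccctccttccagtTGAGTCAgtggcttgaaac
Gja4: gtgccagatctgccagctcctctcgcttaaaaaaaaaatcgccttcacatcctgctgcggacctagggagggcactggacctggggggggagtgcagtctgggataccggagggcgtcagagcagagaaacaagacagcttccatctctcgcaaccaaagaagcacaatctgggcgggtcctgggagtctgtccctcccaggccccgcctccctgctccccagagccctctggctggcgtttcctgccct
Gja5: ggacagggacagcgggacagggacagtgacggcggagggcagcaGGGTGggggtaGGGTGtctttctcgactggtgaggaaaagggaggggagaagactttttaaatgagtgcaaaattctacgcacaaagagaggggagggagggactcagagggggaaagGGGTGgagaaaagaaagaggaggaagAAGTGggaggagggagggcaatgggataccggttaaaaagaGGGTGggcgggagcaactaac

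The Gja1 stretch held 1 GATAA, starting 135 bases before the start, and 1 TGANTCA, starting 19 bases before it. A general E-box (CANNTG), starting at base −23 and overlapping the TGANTCA match, is not in capitals. The Gja5 stretch held 4 CACCC and 1 AAGTG, and the Gja4 stretch held none of the motifs searched. Neither CATCTG, an E-box that HAND2 can bind, nor the T-box core GGTGTG was in any of the 3. Among all 32851 RefSeq promoter stretches of this length, 22.6% held GATAA, 6.75% TGANTCA, 40.7% AAGTG, 52.0% CACCC, 66.2% CANNTG, 14.4% CATCTG and 16.3% GGTGTG. A match describes the letters in this window and is not evidence of binding.

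Filters on quality left 8793 cells of the control and 11533 of H2CKO, and their median depths were 16223 and 13431 UMIs (unique molecular identifiers, 1 for each captured transcript). The cells fell into 19 clusters, made without any connexin gene among the genes used. Clusters took a class name, ending in "-like", from fixed marker lists; those whose leading genes went against the name are given by their leading genes. All 10 cardiomyocyte markers had a UMI in at least 10% of the cells of each cardiomyocyte-like cluster. Levels are CPM, in which the UMIs of a gene are scaled to the same total for every group of cells. As a check of the labels, Hand2 in endothelial-like cells was 172 CPM in the control and 13.1 CPM in H2CKO. The matrices shared 57 cell barcodes.

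Each connexin had its own map of clusters, and the top of that map was the same in both libraries. Gja1 was highest in the trabecular-like cluster led by Nppa and Nppb, natriuretic peptide genes of the inner ventricular wall, at 224 CPM in the control (215 to 233) and 113 CPM in H2CKO (108 to 118). Gja5 was also highest there among the 18 clusters with at least 50 cells in each library, at 57.1 CPM (52.7 to 61.7) and 32.5 CPM (30.0 to 35.2). Gjc1 was highest in a cluster led by Rspo3, Bmp4, Sema3c and Isl1, the last a gene of cells added at the outflow pole, at 251 CPM (241 to 261) and 166 CPM (157 to 175). Gja4 was highest in endothelial-like cells, at 104 CPM (90.3 to 120) and 86.5 CPM (79.3 to 94.1). In H2CKO the top was not separated from the next cluster for 2 genes, whose intervals overlap. For Gja1 the next was an unnamed cluster led by Stmn2, Wnt4 and Klf2, at 103 CPM (91.7 to 114). For Gjc1 it was the cluster led by Bmp2 and Tbx3, at 151 CPM (138 to 166). Erythroid-like cells, taken as a guide to free RNA, had 2.10 and 1.23 CPM of Gja1, 2.002 and 1.17 CPM of Gjc1, 0.510 and 0.278 CPM of Gja5, and 1 Gja4 UMI in each library. Globin took 66% and 68.8% of their UMIs, which lowers the CPM of every other gene there. The 10 cardiomyocyte markers summed to 906 and 912 CPM in them, but to 1811 and 1712 CPM in mesenchymal-like cells, so free RNA elsewhere may stand higher.

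**Figure D1:**
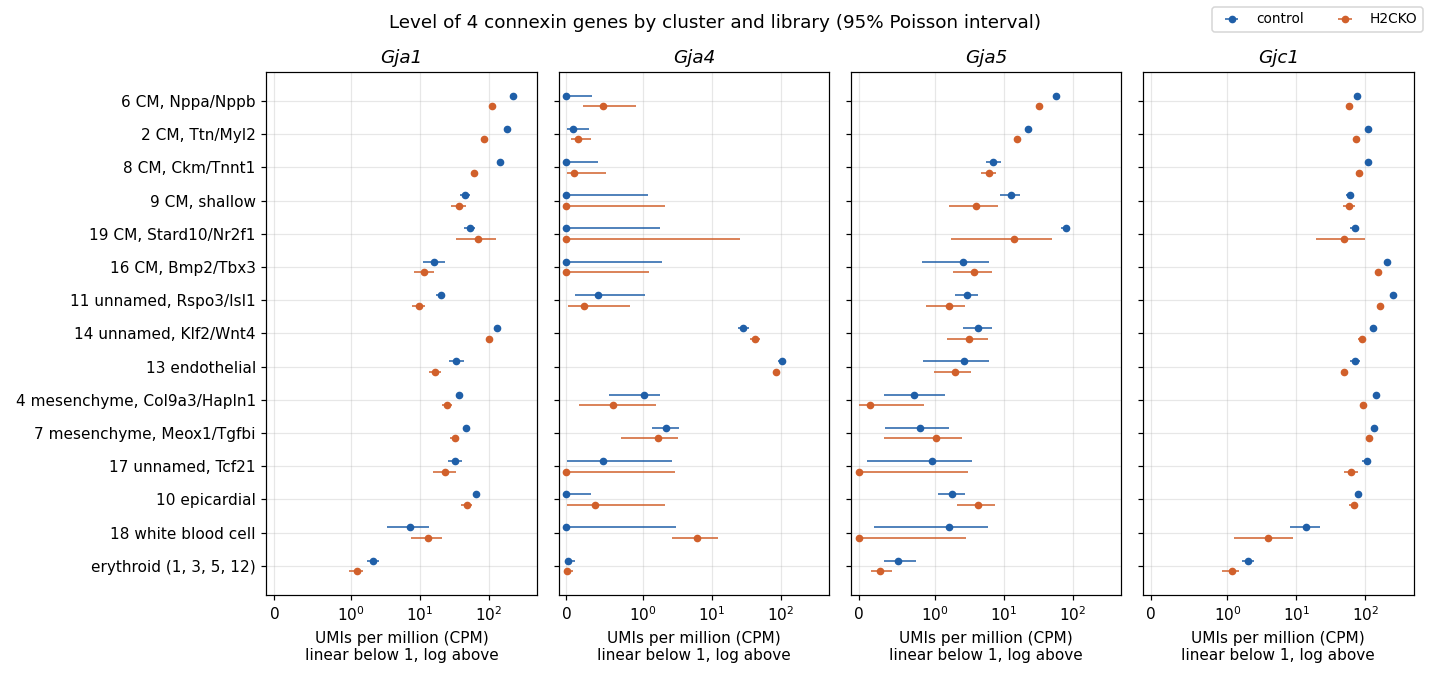
Level of each connexin gene in CPM (horizontal, linear below 1 and log above) by cluster (vertical; CM is cardiomyocyte-like) in the control and H2CKO libraries, with 95% Poisson intervals. Gja4 stands near 100 in cluster 13 and is at or near 0 in the muscle clusters, while Gjc1 is between 48.5 and 251 in every muscle, mesenchymal, endothelial and epicardial cluster.

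The 3 largest deeply read cardiomyocyte-like clusters held different levels of Gja1, Gja5 and Gjc1. After the trabecular-like cluster, Gja1 was next highest in the cluster led by Ttn and Myl2, at 182 CPM (177 to 188) in the control, and then in the cluster led by Ckm and Tnnt1, at 145 CPM (137 to 153). Set against the other cardiomyocyte-like cells, the Ttn- and Myl2-led cluster was led by cell-cycle genes such as Top2a and Mki67. The H2CKO order was the same, with 85.4 CPM (82.5 to 88.3) in the Ttn- and Myl2-led cluster and 62.3 CPM (57.6 to 67.2) in the Ckm- and Tnnt1-led cluster. The intervals of these neighbours did not overlap within either library.

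Gja5 had the same order. It was 21.9 CPM (20.1 to 23.8) in the Ttn- and Myl2-led cluster and 7.01 CPM (5.38 to 8.99) in the Ckm- and Tnnt1-led cluster of the control. In H2CKO these levels were 15.2 CPM (14.02 to 16.5) and 6.02 CPM (4.64 to 7.69). With each cell thinned to 5000 UMIs, Gja5 had a UMI in 24.8% of trabecular-like control cells and 1.07% of Ckm- and Tnnt1-led control cells. Before thinning the shares were 64.2% and 11.3%, at median depths of 22030 and 21453 UMIs. In H2CKO the thinned shares were 13.4% and 3.58%. The thinned level of Gja5 in the Ckm- and Tnnt1-led cluster was 3.73 CPM in the control and 7.44 CPM in H2CKO, against the direction of the unthinned levels, so no order of the libraries is read there.

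Gjc1 had another order, at 75.1 CPM (70.1 to 80.4) in the trabecular-like cluster against 109 CPM (104.5 to 113) and 108 CPM (101 to 115) in the other 2 clusters. The last 2 intervals overlap. In H2CKO the levels were 58.5 CPM (55.1 to 62.1), 72.2 CPM (69.6 to 74.9) and 82.3 CPM (76.9 to 87.9). The trabecular-like cluster was thus the lowest of the 3 for Gjc1 and the highest for Gja1 and Gja5 in each library.

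The atrial-like cluster, led by Stard10 and Nr2f1, held 104 control cells but 6 H2CKO cells, and no comparison between libraries was made there. In its control cells Gja5 was 78.5 CPM (67.0 to 91.4). Thinned to 5000 UMIs, the Gja5 level was 56.9 CPM there and 62.6 CPM in trabecular-like control cells, against the unthinned direction, so these 2 clusters are not ordered. Gja1 was 53.4 CPM (44.0 to 64.3) and Gjc1 70.0 CPM (59.2 to 82.2) in those cells, and no Gja4 UMI was found, which, at 3 counts of the total, allows up to 1.42 CPM. The remaining muscle cluster, whose cells were shallow (1720 UMIs at the median in the control and 2419.5 in H2CKO), had 45.3 and 36.8 CPM of Gja1, 12.4 and 3.90 CPM of Gja5, and 60.3 and 57.9 CPM of Gjc1. The 10 erythroid markers summed to 76596 and 254847 CPM in these cells, and the 10 cardiomyocyte markers to 44434 and 29454 CPM. Their part in the levels was not tested.

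The outflow-and-canal-like muscle cluster, and an unnamed cluster with cardiomyocyte markers, had little Gja1 and much Gjc1 compared with the muscle clusters above. The outflow-and-canal-like cluster led by Bmp2 and Tbx3 held 16.4 CPM of Gja1 (11.2 to 23.1) in the control, beside 11.7 CPM (8.15 to 16.3) in H2CKO. The 5 cells with most Gja1 held 65.6% and 77.1% of its UMIs there. Its Gjc1 was 206 CPM (186 to 227) and 151 CPM (138 to 166). Gja5 was 2.56 CPM (0.830 to 5.97) and 3.68 CPM (1.84 to 6.58) there, from 5 UMIs in 96 control cells and 11 UMIs in 182 H2CKO cells. The Rspo3- and Isl1-led cluster scored highest for smooth muscle markers. It stayed unnamed because 5 of its 10 leading genes are markers of cardiomyocytes or their finer types. Its 10 cardiomyocyte markers summed to 60437 CPM in the control and 53381 CPM in H2CKO, beside 49946 and 46249 CPM in the cardiomyocyte-like class, which does not include it. Gja1 in this cluster was 20.1 CPM (17.4 to 23.1) and 9.71 CPM (7.75 to 12).

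The balance of Gja1 and Gjc1 within a cluster does not depend on the total by which both are divided. Capture may differ between genes, so the balance is compared between clusters and is not read as which transcript is more abundant. Of the UMIs of these 2 genes in the control, Gja1 made up 74.9% (73.4 to 76.4) in the trabecular-like cluster, 62.7% (61.6 to 63.8) in the Ttn- and Myl2-led cluster and 57.3% (55.3 to 59.4) in the Ckm- and Tnnt1-led cluster. It made up 7.36% (5.09 to 10.2) in the Bmp2- and Tbx3-led cluster and 7.41% (6.43 to 8.48) in the Rspo3- and Isl1-led cluster. In H2CKO the values of the first 3 of these clusters were lower, at 65.8% (64.2 to 67.5), 54.2% (52.9 to 55.4) and 43.1% (40.6 to 45.6), with intervals that do not overlap those of the control. The Bmp2- and Tbx3-led cluster had 7.19% (5.06 to 9.85) in H2CKO, within counting error of the control.

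**Figure D2:**
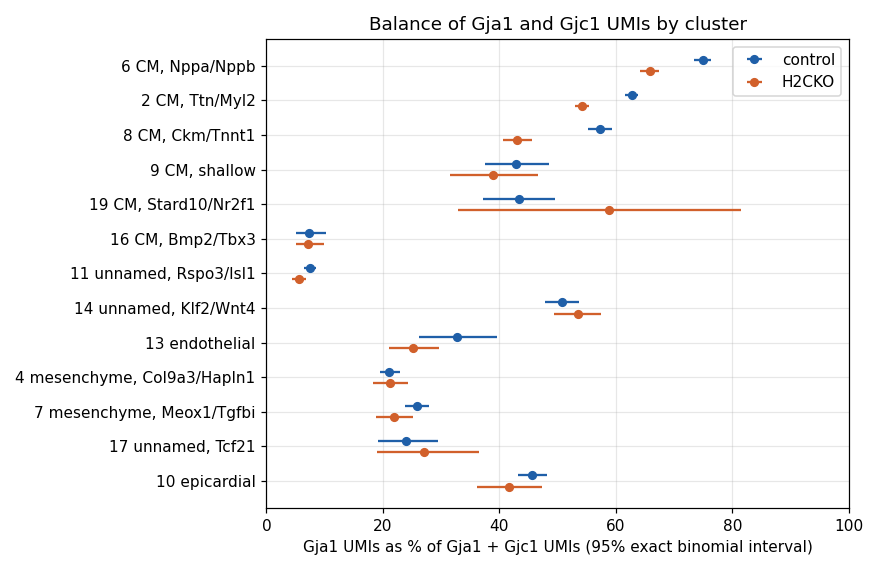
Gja1 UMIs as a percentage of Gja1 plus Gjc1 UMIs (horizontal) by cluster (vertical) in the control and H2CKO libraries, with 95% exact binomial intervals. Clusters 6, 2 and 8 sit lower in H2CKO (65.8%, 54.2% and 43.1%) than in the control (74.9%, 62.7% and 57.3%), and clusters 16 and 11 sit between 5.53% and 7.41% in both.

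In single muscle cells, Gja1 and Gjc1 were found together about as often as the product of their shares gives. At 5000 UMIs per cell, 286 of 1881 control cardiomyocyte-like cells had a UMI of both, where the product of the shares gives 301. In H2CKO it was 289 of 3488 cells, against 300.4. Gja1 and Gja5 were found together in 114 control cells against 92.1 and in 96 H2CKO cells against 70.03, but within the trabecular-like cluster alone in 69 control cells against 67.7 and 59 H2CKO cells against 47.2. In the Ttn- and Myl2-led cluster it was 37 against 30.5 and 31 against 26.3. Gja5 and Gjc1 were together in 61 control cells against 78.8 and in 61 H2CKO cells against 76.2. For that pair the trabecular-like cluster had 28 against 35.4 and 30 against 35.7, and the Ttn- and Myl2-led cluster 26 against 25.3 and 24 against 27.4. With counts this sparse, these are descriptions of the 2 libraries.

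Mesenchymal-like cells, the tissue of the cushions, had more Gjc1 than the cardiomyocyte-like class as a whole and less Gja1. The Bmp2- and Tbx3-led cluster of that class, and the unnamed Rspo3- and Isl1-led cluster, had more Gjc1 than mesenchymal-like cells. In mesenchymal-like cells the level of Gjc1 was 138 CPM (133 to 143) in the control, beside 102 CPM (96.2 to 108) in H2CKO. Gja1 was 41.6 CPM (39.0 to 44.4) and 28.0 CPM (25.0 to 31.2). The cluster led by Col9a3 and Hapln1 and the cluster led by Meox1 and Tgfbi had overlapping Gjc1 intervals in the control, at 141 CPM (135 to 148) and 133 CPM (126 to 141). In H2CKO they were 92.8 CPM (85.5 to 100.4) and 115 CPM (105 to 124.5), which do not overlap. Within H2CKO, the 406 mesenchymal-like cells with a GFP UMI had 98.1 CPM of Gjc1 (89.0 to 108) and the 669 without one had 104 CPM (96.9 to 112), which overlap. Gja1 was 25.3 CPM (20.8 to 30.5) and 29.6 CPM (25.7 to 33.9) in the same cells. Of the cells with a GFP UMI, 351 were in the Col9a3- and Hapln1-led cluster and 55 in the other, against 299 and 370 of those without one. Within the Col9a3- and Hapln1-led cluster Gjc1 was 96.1 CPM with a GFP UMI and 88.7 CPM without, the other direction. In the Meox1- and Tgfbi-led cluster it was 108 and 116 CPM. Cells without a GFP UMI can still carry the recombined reporter.

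Epicardial-like cells, the outer layer of the heart, had 65.8 CPM of Gja1 (61.1 to 70.7) in the control, beside 48.3 CPM (40.3 to 57.4) in H2CKO. Gjc1 was 78.2 CPM (73.2 to 83.6) and 67.7 CPM (58.2 to 78.4). The summed level of the 10 cardiomyocyte markers in these cells was 4092 CPM in the control and 8068 CPM in H2CKO, with all 10 higher in H2CKO, and its part in these values was not tested. The unnamed Tcf21-led cluster had 33.0 and 23.3 CPM of Gja1 and 104 and 62.7 CPM of Gjc1. White-blood-cell-like cells held between 0 and 17 UMIs of each connexin in either library.

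Gja4 was found mainly in endothelial-like cells and in 1 unnamed cluster that also had endothelial markers. Endothelial-like cells (117 control and 484 H2CKO) had Gja4 in 59.0% of control and 46.3% of H2CKO cells, at median depths of 13645 and 10726.5 UMIs. At 5000 UMIs per cell these shares were 29.7% (21.4 to 39.2) and 27.9% (23.8 to 32.2), which overlap. One control and 1 H2CKO Gja4 UMI were found among all erythroid-like cells. In the endothelial-like cells Gja1 stood at 34.2 CPM (26.5 to 43.5) in the control, with 16.6 CPM (13.6 to 20.1) in H2CKO, and Gjc1 was 70.5 CPM (59.1 to 83.4) and 49.5 CPM (44.1 to 55.3). Gja5, the arterial connexin, had 5 and 12 UMIs.

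That unnamed cluster was led by Stmn2, Wnt4 and Klf2, a gene induced by blood flow. In it 11 of the 12 endothelial markers had a UMI in at least 10% of the cells, but 0 of them were among its 10 leading genes. It held 257 control and 266 H2CKO cells. Gja1 there was 133 CPM (122 to 144) in the control, beside 103 CPM (91.7 to 114) in H2CKO, above endothelial-like cells in each library with intervals that do not overlap. Gja4 was below endothelial-like cells, at 28.7 CPM (23.8 to 34.3) and 42.3 CPM (35.5 to 50.1). Gjc1 was 129 CPM (118 to 140) and 89.4 CPM (79.3 to 100.4). Gja1 was thus higher in the Klf2-led cluster and Gja4 in endothelial-like cells, in the control and in H2CKO.

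Within H2CKO, Gja4 in endothelial-like cells was at the same level in cells with and without a GFP UMI. Cells without one were shallower, at a median of 9796 against 11252 UMIs, and can still carry the recombined reporter. This split therefore does not part cells with Hand2 deleted from other cells. The 295 cells with a GFP UMI had 86.5 CPM (77.7 to 95.9) and the 189 without one had 86.4 CPM (74.4 to 99.8). Gja1 was 17.4 CPM (13.7 to 22.0) and 14.95 CPM (10.2 to 21.1) in the same cells. In the Klf2-led cluster, Gja4 was 37.8 CPM (31.2 to 45.5) in 233 cells with a GFP UMI and 100.4 CPM (63.7 to 151) in 33 cells without one, from 112 and 23 UMIs. By lists of endocardial and vascular endothelial markers, 113 of the 117 control and 456 of the 484 H2CKO endothelial-like cells had more endocardial UMIs. Gja4 in those H2CKO cells was 89.5 CPM (82.0 to 97.4), and it was 18.6 CPM (6.03 to 43.4), from 5 UMIs, in the 19 cells with more vascular UMIs. In the Klf2-led cluster the 257 control cells and 265 of the 266 H2CKO cells also had more endocardial UMIs. With nearly all cells on 1 side, this split does not show which cells are endocardial.

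The comparison sets the control library, with no Cre, beside the H2CKO library, with Nfatc1Cre and with Hand2 deleted in the endocardium and its descendants. Differences tied to the Cre allele and to the loss of Hand2 cannot be told apart in this design. Each ratio is H2CKO divided by control, on the log2 scale and with 5 CPM added to both levels. A gene was tested where its higher library had 20 CPM and 20 UMIs or more, and genes whose log2 ratio was 1 or more in size are called past 2-fold. Of the 24 pairs of a connexin and a class, 10 reached this minimum, and 0 were past 2-fold. Of all tested genes, 0.71% were past 2-fold in either direction in cardiomyocyte-like, 3.95% in mesenchymal-like, 6.18% in epicardial-like and 10.1% in endothelial-like cells. All 10 ratios were below 0, where 67.3%, 69.0%, 65.0% and 69.0% of all genes tested in these classes were below 0. Over the 18 clusters, Gjc1 was lower in H2CKO in 18, Gja1 in 17 and Gja5 in 14. Gja4 was lower in 7, higher in 6 and at 0 in both libraries in 5. These counts include erythroid-like clusters and clusters with few UMIs, and 49.0% to 80.2% of all tested genes were below 0 in each cluster. Clusters of 1 library share their preparation and are not replicates.

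Gja1 in cardiomyocyte-like cells stood furthest from other genes. Its level was 165 CPM (162 to 169) in control muscle, and in H2CKO muscle it was 84.8 CPM (82.7 to 86.9). The log2 ratio was −0.92. Without the added 5 CPM the level was 1.95-fold lower (95% interval of the ratio of H2CKO to control, 0.497 to 0.531). The class was made up differently in the 2 libraries, with 799 control and 240 H2CKO cells in the shallow cluster and 104 and 6 in the atrial-like one. The median of all 5490 genes tested there was −0.16, and 0.783% of them had a lower ratio than Gja1. By cluster, the ratio was −1.05 in the Ttn- and Myl2-led cluster and −1.16 in the Ckm- and Tnnt1-led cluster, both past 2-fold, where 0.829% and 1.01% of tested genes were past 2-fold lower. In the trabecular-like cluster it was −0.96. Among the 18 clusters with at least 50 cells in each library, the only other connexin past 2-fold was Gjc1 in a shallow unnamed cluster of 284 control and 81 H2CKO cells, at 71.9 and 7.12 CPM (−2.67), from 39 and 4 UMIs. There 21.2% of tested genes were past 2-fold lower, and the 10 cardiomyocyte markers summed to 8097 and 1856 CPM, all 10 lower in H2CKO. The 12 mesenchymal markers summed to 1824 and 153 CPM, all 12 lower, and the 11 epicardial markers to 709 and 49.8 CPM, 9 lower and 0 higher. The part of these markers was not tested. For Gja1 in all cardiomyocyte-like cells the ratio was −1.46 with a stricter cell filter (1500 genes or more and at most 5% mitochondrial UMIs), which left 1187 of the 2533 control and 312 of the 3724 H2CKO cardiomyocyte-like cells. The part of this difference in cell quality was not tested. At 5000 UMIs per cell Gja1 had a UMI in 43.2% (41.0 to 45.5) of control and 28.1% (26.6 to 29.7) of H2CKO cardiomyocyte-like cells.

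The other muscle connexins differed by less. For Gja5 the control level was 27.9 CPM (26.5 to 29.4) and the H2CKO level 17.5 CPM (16.6 to 18.5) over all muscle clusters. Its log2 ratio was −0.55, with 11.7% of tested genes lower, and it was −0.97 with the stricter cell filter. In the trabecular-like cluster its ratio was −0.73, with 4.39% of tested genes lower. In the larger Ttn- and Myl2-led cluster it was −0.41, with 26.1% lower. Gjc1 stood at 100.4 CPM (97.7 to 103) in control and at 73.0 CPM (71.1 to 75.0) in H2CKO muscle. Its log2 ratio was −0.44, with 20.2% of tested genes lower, and it was −0.26 with the stricter cell filter. The ratio fell with the length of the gene in the genome, with a Spearman rho of −0.473 across the genes of this class, which are not independent replicates. Gja5 has the longest span of the 4, at 172724 bases, and Gja4 the shortest, at 2619. The RefSeq start used for the Gja5 promoter lies inside this GENCODE span, so its length depends on the start taken. With that trend taken out, the ratios were −0.72 for Gja1, −0.22 for Gja5 and −0.35 for Gjc1. Whether the trend comes from the animals or from the making of the libraries cannot be told apart.

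**Figure D3:**
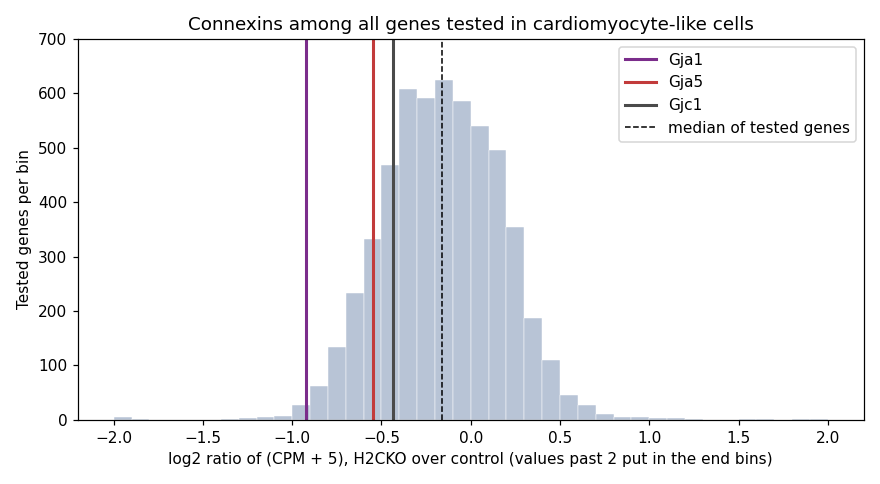
Number of tested genes (vertical) by log2 ratio of H2CKO over control in cardiomyocyte-like cells (horizontal, bins of 0.1), with lines at Gja1 (−0.92), Gja5 (−0.55), Gjc1 (−0.44) and the median of all 5490 tested genes (−0.16, dashed). Gja1 lies in the lower tail, where 0.783% of genes are lower.

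In endothelial-like cells Gja4 had a log2 ratio of −0.26, the same as the median of all tested genes there to 2 decimals, and −0.34 with the trend with gene length taken out. Gja1 had −0.86, with 13.8% of tested genes lower, and was past 2-fold with a pseudocount of 1 CPM or with no doublet filter. Gjc1 had −0.47, with 35.6% lower. The summed level of the 12 mesenchymal markers in these cells was 1595 CPM in the control and 531 CPM in H2CKO, with 11 of 12 lower, while that of the 10 cardiomyocyte markers was 1055 and 1228 CPM; their part in the ratios was not tested. In the Klf2-led cluster the ratios were −0.36 for Gja1 and −0.50 for Gjc1, against a median of −0.24, but 0.49 for Gja4 (interval of the ratio, 1.15 to 1.90), where 4.16% of tested genes were past 2-fold. The 5 cells with most Gja4 held 30.3% of its UMIs in the control and 36.3% in H2CKO in that cluster. A Gja4 UMI was found in 22.6% and 16.2% of its cells, and with cells thinned to 5000 UMIs the levels were 37.3 CPM in both libraries. The 12 mesenchymal markers summed to 4312 and 1995 CPM in the same cells, all 12 lower in H2CKO, and their part was not tested. With endothelial-like cells and the Klf2-led cluster pooled, an alternative chosen after seeing the data, the ratio for Gja4 was 0.42, and it was 0.33 with each cell named by its own markers, so the direction for Gja4 depended on which cells were counted as endothelial. The pool held 257 control and 266 H2CKO cells of the Klf2-led cluster, where Gja4 was lower, beside 117 and 484 endothelial-like cells. The part of this make-up in the pooled ratio was not tested.

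In mesenchymal-like cells the log2 ratio was −0.50 for Gja1 and −0.42 for Gjc1, against a median of −0.24. Gjc1 had −0.58 in the Col9a3- and Hapln1-led cluster, against a median of −0.25. In the Meox1- and Tgfbi-led cluster it had −0.21, against −0.22. For Gja1 in the whole class the ratio was −0.29 with cells thinned to 5000 UMIs and −0.21 with the length trend taken out. The 12 mesenchymal markers summed to 8383 CPM in the control and 4132 CPM in H2CKO in these cells, all 12 lower, and the 10 erythroid markers to 11893 and 56018 CPM; their part in these ratios and in the list counts of this class was not tested. In epicardial-like cells it was −0.41 and −0.19, against −0.21. In the Rspo3- and Isl1-led cluster it was −0.77 and −0.58, against −0.17. Globin UMIs, which mark free RNA from red cells outside erythroid-like cells, took 1.46% of control and 2.55% of H2CKO UMIs in cardiomyocyte-like cells and 1.20% and 5.69% in mesenchymal-like cells. With globin UMIs left out of the totals, the ratios were −0.91 for Gja1 in cardiomyocyte-like cells and −0.35 for Gjc1 in mesenchymal-like cells.

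**Figure D4:**
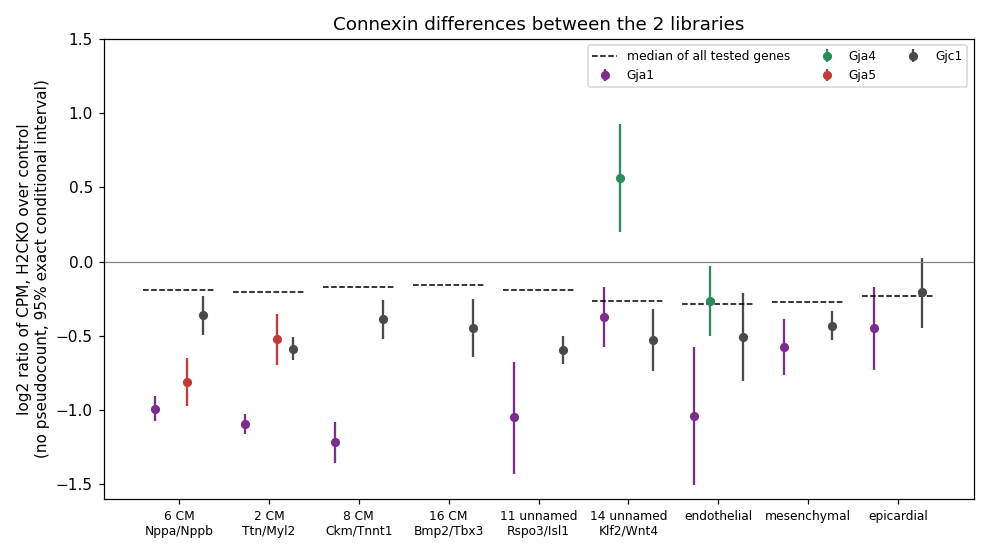
Log2 ratio of CPM, H2CKO over control, without a pseudocount (vertical) for each connexin that reached the minimum, by cluster or class (horizontal), with 95% exact conditional intervals and the median of all tested genes as a dashed line. Clusters 6, 2, 8, 16, 11 and 14 and 3 classes are drawn, without clusters 9, 15 and 17. Every point drawn but Gja4 in cluster 14 lies below 0, and the lowest drawn are those of Gja1.

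The wider connexin family was measured at low levels in these cells. Of 19 other connexin and pannexin genes, all 19 were features of the matrices and 0 reached 20 CPM in any class, and 16 stayed under 5 CPM in every class and cluster with at least 50 cells in each library. The highest connexin among them was Gja3, at 14.3 CPM in the control and 10.7 CPM in H2CKO in the Bmp2- and Tbx3-led cluster, from 28 and 32 UMIs. Panx1, a channel gene related to connexins in function, was 17.6 CPM in control and 15.8 CPM in H2CKO mesenchymal-like cells, from 395 and 180 UMIs.

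Of 24 genes for partners of gap junctions and the junction scaffold, 17 were tested in cardiomyocyte-like cells and 0 were past 2-fold, beside 0.71% of all tested genes. Their median ratio was −0.32, against −0.16 for all tested genes. This list and the list of transcription factors below were chosen with earlier results of these data known, so their counts are descriptions. In mesenchymal-like cells 2 of 13 were past 2-fold lower, beside 3.95% of all genes past 2-fold in either direction. These were Cdh2, the gene for N-cadherin, at 208 and 80.9 CPM (−1.31), and Dsp, the gene for desmoplakin, at 56.2 and 19.3 CPM (−1.34). In epicardial-like cells 1 of 15 was past 2-fold lower, namely Tjp1 at 123 and 58.4 CPM (−1.01). Of all genes there, 6.18% were past 2-fold in either direction and 4.77% lower. In endothelial-like cells 1 of 12 was past 2-fold higher and 2 lower, beside 10.1% of all genes. Tjp1, the gene for the scaffold protein ZO-1 that binds connexin tails, was 251 and 109 CPM (−1.16), and the desmosomal cadherin gene Dsg2 was 38.9 and 1.91 CPM (−2.67). Cav1, the gene for caveolin-1, was 28.0 and 99.7 CPM (1.67). In the Klf2-led cluster, which also had endothelial markers, 3 of 14 genes of this list were past 2-fold lower and 0 higher. There 4.16% of all genes were past 2-fold in either direction.

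Of 20 genes for transcription factors known to act on connexin genes or tied to them in the heart, 10 were tested in cardiomyocyte-like cells and 0 were past 2-fold, beside 0.71% of all tested genes, with a median of −0.21. Hand2 itself was 73.8 and 72.7 CPM there (−0.021). In mesenchymal-like cells 3 of 11 were past 2-fold lower, beside 3.95% of all genes in either direction, namely Hand2 (−1.83), the gene deleted by design, Tbx2 (−1.06), a repressor of chamber genes, and Tbx20 (−1.07). In epicardial-like cells 2 of 12 were past 2-fold higher, Nkx2-5 (1.53) and Hopx (1.94), both heart muscle genes. Of all genes there, 6.18% were past 2-fold in either direction and 1.41% higher. These 2 genes stand beside the higher cardiomyocyte markers given above for these cells. In endothelial-like cells 6 of 12 were past 2-fold lower, Hand2 again included, beside 10.1% of all genes in either direction. They were Hand2 (−3.29), Tbx5 (−2.57), Tbx20 (−2.44), Hey1 (−1.42), Gata4 (−1.10) and Jun (−1.06). The SoxF genes Sox17 (2.06) and Sox18 (1.24) were past 2-fold higher there. The lower mesenchymal markers given above for these cells, and erythroid markers that summed to 23194 CPM in the control and 41715 CPM in H2CKO, stand beside these counts, and their part was not tested. In the Klf2-led cluster, which also had endothelial markers, 2 of 12 were past 2-fold lower and 0 higher. There 4.16% of all genes were past 2-fold in either direction.

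Genes were ranked by how closely their levels over the 18 clusters followed each connexin, by the lower of the Pearson r in the 2 libraries, among 7859 genes. Clusters share their library and include several of 1 class, so r is a description. The closest to Gja1 were L3hypdh (0.895 in the control and 0.911 in H2CKO), Hey2 (0.945 and 0.894), Mycn (0.907 and 0.877), Sh3kbp1 (0.856 and 0.861) and Mest (0.861 and 0.848). Those closest to Gja4 were Adgrf5, Col23a1, Thsd1, Scarf1 and Epas1, with a lowest r of 0.961. The nearest to Gja5 were Wdr93 (0.929 and 0.952), Nppa (0.926 and 0.963), Igfbpl1 (0.946 and 0.911), Sox3 (0.920 and 0.910) and Nppb (0.905 and 0.899). For Gjc1 they were Fermt2, Lpp, Yap1, Map1lc3a and Pard3, with a lowest r of 0.971. Between connexins, r was 0.713 and 0.718 for Gja1 and Gja5, 0.733 and 0.720 for Gja1 and Gjc1, and −0.071 and −0.059 for Gja4 and Gja5.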

How the data were processed

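The authors deposited, for each of the 2 libraries, a matrix of UMI counts per gene and cell barcode and a table of embedding coordinates. The submitters' processing notes name Cell Ranger 5.0.1, Seurat 4 and GRCm38.p6, without roles; whether reads in introns were counted is not given in the sources used here. Of 22401 gene identifiers, 22285 matched a symbol. A barcode passed with 500 or more genes detected and no more than 10% of its UMIs mitochondrial. Scrublet doublets were removed, 1048 in the control; its threshold marked 0 in H2CKO, where the 608 highest scores were removed instead. Cells were clustered by the Leiden method (resolution 1) on 2000 variable genes without connexin, pannexin, Hand2, reporter, haemoglobin, mitochondrial and sex-linked genes. A class name needed at least 3 detected markers and leading genes that did not favour another class; counting finer muscle markers as the class's own was decided after the clusters were seen. UMIs were summed per library and class and divided by the class total (CPM). A log2 ratio used a pseudocount of 5 CPM and genes with at least 20 CPM and 20 UMIs, and the ratio code was tested on simulated data. Poisson, Clopper-Pearson and conditional intervals cover counting error only. The genes named were the 4 connexins, Hand2 and list genes past 2-fold in cardiomyocyte-, mesenchymal- or endothelial-like cells, and the 5 genes most like each connexin over clusters; Gja3, Panx1 and the epicardial list genes fall outside this rule and were chosen after their values were seen. The connexins and gene lists were chosen with earlier results of these data known.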

Additional observations from a re-analysis of the deposited data

Results flagged for a closer look

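Gja4 stood out because its log2 ratio of H2CKO over control was above 0 in an unnamed cluster with endothelial markers and below 0 in endothelial-like cells. It was 0.49 in that Klf2- and Wnt4-led cluster and −0.26 in endothelial-like cells, with intervals of the ratio of 1.15 to 1.90 and 0.705 to 0.981. With 1 library per genotype, the difference between the clusters was not tested. With cells thinned to 5000 UMIs, Gja4 in the Klf2- and Wnt4-led cluster was 37.3 CPM in both libraries, and the share of its cells with a Gja4 UMI, before thinning, was 22.6% in the control and 16.2% in H2CKO.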

How the results depend on the processing

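No paired analysis was possible because there was 1 library per genotype and no replicate to pair or leave out. Over 10 ratios, 119 values were computed under alternatives, of which 94 stayed within the counting interval, 25 moved and 116 were below 0. For Gja1 in cardiomyocyte-like cells (−0.92), the ratio was −1.46 with the strict cell filter, −0.86 with thinned cells, −0.86 with cells named by their own markers, −0.76 centred on the median gene, −0.72 with the gene span trend taken out, −0.74 as a mean over cells and −1.01 in clusters 2, 6 and 8 only. Gja5 there (−0.55) was −0.97 with the strict filter, −0.39 centred and −0.22 without the span trend. Gjc1 there (−0.44) was −0.26 with the strict filter, −0.28 centred and −0.31 as a mean over cells. Gjc1 in mesenchymal-like cells (−0.42) was −0.17 centred and −0.26 without the span trend. Gja4 in endothelial-like cells (−0.26) was 0.33 with cells named by their own markers, 0.42 with the Klf2-led cluster pooled in and −5.28e-05 centred. The count of connexin and class pairs past 2-fold, 0 as reported, was 1 with no doublet filter, with cells named by their own markers, with a pseudocount of 1 CPM and with the Klf2-led cluster pooled in (each time Gja1 in endothelial cells). It was 1 with the strict filter and in clusters 2, 6 and 8 only (Gja1 in cardiomyocytes), and 2 with no filter on low counts (Gja4 and Gjc1 in white blood cells). The causes were not tested. The alternatives by clusters 2, 6 and 8, without cluster 6, with the Klf2-led cluster pooled in and without globin UMIs were chosen after seeing the data. Depth limits Gja4 and Gja5 outside their main clusters, where a few UMIs carry each value.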
